A study of Mus musculus with 4 samples.

Results

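Genes for 8 proteins of the nucleus were followed in mouse microglia, the resident macrophages of the brain. They were taken by symbol from the gene tables, and all 8 were found among 20308 genes. Sp100, Sp110 and Sp140 encode speckled proteins, Pml and Daxx encode core parts of PML nuclear bodies, and Ifi203, Ifi204 and Mndal belong to the HIN-200 family. The microglia came from mice at postnatal day 11, in a study of PD-1 and the pruning of brain vessels. Of the 4 libraries, 2 were labelled Pd1cKO-Cx3 (replicates 2 and 3), a conditional knockout of the PD-1 gene, and 2 were labelled Pd1fl/fl (replicates 1 and 2), in which that gene is flanked by recombination sites. Both groups thus carried the floxed allele. What "Cx3" stands for, the strain, the sex and whether each replicate was its own animal are not in the labels. The p-values therefore measure the spread between these samples alone, which may be technical.

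PML nuclear bodies are small protein assemblies inside the nucleus. The PML protein builds their shell, is modified by the small protein SUMO, and recruits partners such as SP100 and DAXX. These bodies take part in transcriptional control and in intrinsic defence against DNA viruses, and interferon is known to induce several of their parts. HIN-200 proteins carry a domain that binds DNA, and some of them sense DNA in the nucleus or cytoplasm. Their genes lie side by side on mouse chromosome 1 and are induced by interferon in macrophages.

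Depth ranged from 14258420 to 15486984 counts in Pd1cKO-Cx3-labelled libraries and from 14854625 to 15908954 in Pd1fl/fl. Mitochondrial genes took 1.48% and 1.6% of counts in Pd1cKO-Cx3-labelled libraries against 1.23% and 1.02% in Pd1fl/fl, with no overlap. The targeted gene Pdcd1 had 179 and 154 counts in Pd1cKO-Cx3-labelled libraries against 0 and 43 in Pd1fl/fl, so it was higher in the libraries labelled knockout. Its log2 fold change of 2.95 ± 1.48 (SE) was not called (adjusted p = 0.695 by edgeR, 95% interval -0.72 to 6.62). Every direction below follows labels that this gene does not bear out. The counts cover whole genes, and a deleted part cannot be set apart. Xist was counted in Pd1fl/fl replicate 1 alone. Ddx3y, on the Y chromosome, had 1891 and 2064 counts in Pd1cKO-Cx3-labelled libraries against 0 and 1916 in Pd1fl/fl replicates 1 and 2. Sex-linked expression was thus female in Pd1fl/fl replicate 1 and male in the remaining 3, and sex was not balanced between the groups. Cx3cr1, the fractalkine receptor gene of microglia, fell in Pd1cKO-Cx3-labelled libraries (4658 and 4300 CPM, read counts scaled to a common library total of 1000000, against 11474 and 10264 CPM in Pd1fl/fl), with a log2 fold change of -1.29 ± 0.07 (SE, adjusted p = 0.0251 by edgeR). Microglial markers (7 genes) summed to 41876 and 39680 CPM in Pd1cKO-Cx3-labelled libraries, against 48578 and 48208 CPM in Pd1fl/fl, but only 3 of the 7 were lower in both Pd1cKO-Cx3-labelled libraries than in both controls. Border-associated macrophage markers summed to 663 and 638 CPM against 428 and 516 CPM, with 6 of 7 higher in both Pd1cKO-Cx3-labelled libraries than in both controls. Endothelial markers summed to 125 and 105 CPM in Pd1cKO-Cx3-labelled libraries against 90.7 and 62.2 CPM in Pd1fl/fl. Mural cell markers summed to 117 and 128 CPM against 58 and 25.9 CPM. Of these, 4 of 6 endothelial and 3 of 5 mural cell markers were higher in both Pd1cKO-Cx3-labelled libraries than in both controls, and none was lower. Oligodendrocyte lineage markers summed to 655 and 245 CPM in Pd1cKO-Cx3-labelled libraries against 414 and 210 CPM in Pd1fl/fl. Astrocyte markers summed to 181 and 104 CPM against 150 and 93.8 CPM. Neuronal markers summed to 41.8 and 28.2 CPM against 20.2 and 30.5 CPM. These sums overlapped between groups. Of 4 markers each, 2, 1 and 2 were higher in both Pd1cKO-Cx3-labelled libraries than in both controls, and none was lower. Of the 15097 genes tested by edgeR, 21.3% were higher and 18.8% lower in both Pd1cKO-Cx3-labelled libraries than in both controls. Among lymphocyte markers, Cd3e, Cd3g, Cd8a and Nkg7 were listed in no table, and the sum of the list overlapped between groups (62.8 and 82.2 CPM against 87.6 and 66.9 CPM) with most of it from Cd79b. Cd4, Cd79a and Ms4a1, 3 of the 9, were higher in both Pd1cKO-Cx3-labelled libraries than in both controls, and none was lower. Ms4a1 had 28 and 29 counts in Pd1cKO-Cx3-labelled libraries against 0 and 0 in Pd1fl/fl. The part of sex, of these cells and of the mitochondrial share in the results below was not tested. In bulk RNA more cells of a type and more RNA per cell cannot be told apart.

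Sp100 rose in Pd1cKO-Cx3-labelled libraries, and it was the 1 member of 7 tested that passed the test over all genes. Sp110, Sp140, Pml, Daxx and Ifi204 were also higher in both of these libraries than in both controls, but none passed. Ifi203 overlapped between the groups. Mndal was counted almost entirely in 1 library and had too few counts to be tested. The test was edgeR's quasi-likelihood test on 15097 genes, adjusted by the Benjamini-Hochberg method at 0.05, and it called 0.0199% of those genes higher. Separation of the groups was common: both Pd1cKO-Cx3-labelled libraries lay above both controls in 21.3% of all genes tested and in 6 of the 7 members tested. The median log2 fold change was 0.60 over the 7 members and 0.01 over all genes.

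**Figure D1:**
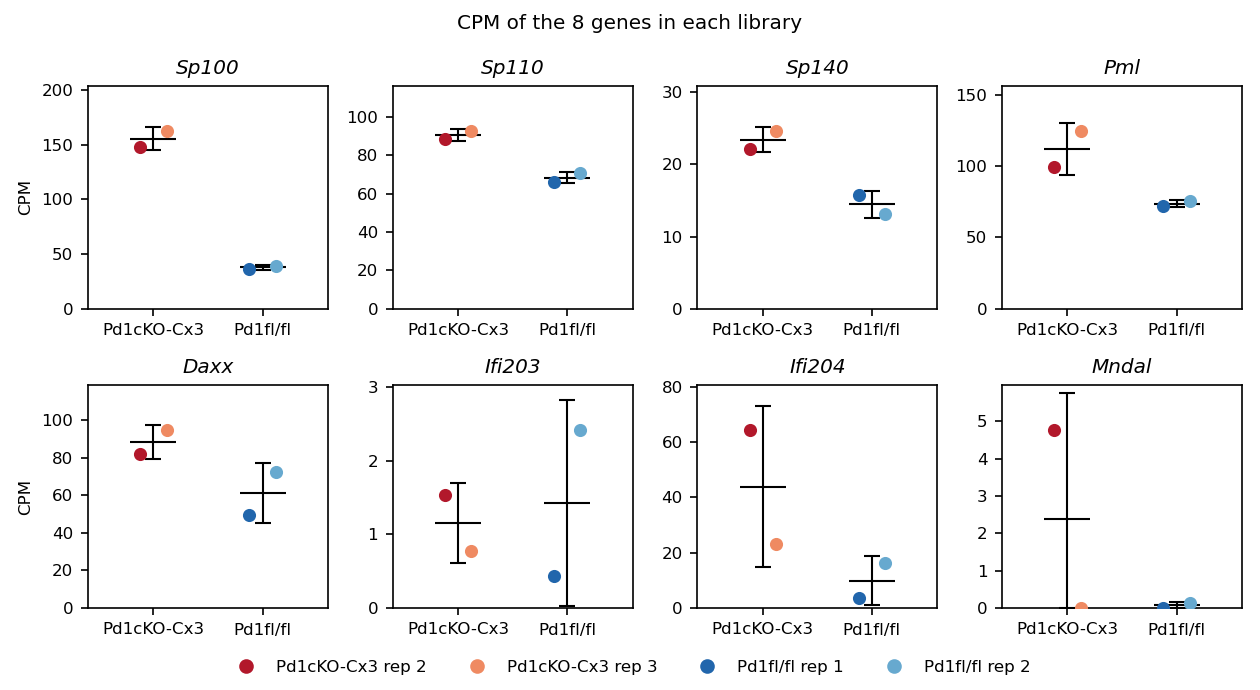
CPM of each of the 8 genes in the 4 libraries, with Pd1cKO-Cx3-labelled libraries on the left of each panel and Pd1fl/fl on the right; every axis starts at 0. Points are libraries, and bars are the mean ± SD (n = 2), drawn down to 0 at most. Sp100 stands at 148 and 163 CPM against 36.3 and 39.4 CPM, while the Mndal signal comes from 1 library with 4.77 CPM.

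The speckled protein genes lie together on chromosome 1. Sp110 (85576899 to 85598817, GRCm38), Sp140 (85600378 to 85645037) and Sp100 (85649988 to 85709998) are separated by gaps of 1.56 and 4.95 kb. Pdcd1 lies on the same chromosome, 8328 kb beyond Sp100.

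Sp100 encodes a nuclear body protein first known as an autoantigen. It had 148 and 163 CPM in Pd1cKO-Cx3-labelled replicates 2 and 3, against 36.3 and 39.4 CPM in Pd1fl/fl replicates 1 and 2. The 2 libraries within each group differed by factors of 1.10 and 1.09, while the group means differed 4.11-fold. The log2 fold change was 2.03 ± 0.16 (SE, n = 2 each, edgeR adjusted p = 0.0466), with a 95% interval from 1.64 to 2.42. The call lay close to the threshold: the adjusted p ranged from 8.07e-22 with DESeq2 to 0.268 without Pd1cKO-Cx3-labelled replicate 3, a fit in which the lone library left in its group is assumed to vary like the other group. The fold change itself stayed between 1.97 and 2.10 in these alternatives. DESeq2 called Sp100 and no other member, against 1.18% of all genes called higher by that tool.

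Sp110, which encodes a nuclear body component linked to macrophage resistance to intracellular bacteria, had 88.4 and 93.0 CPM in Pd1cKO-Cx3-labelled libraries against 66.3 and 70.6 CPM in Pd1fl/fl. The groups did not overlap, and the log2 fold change of 0.40 ± 0.15 (SE) missed the threshold (adjusted p = 0.601 by edgeR, 95% interval 0.02 to 0.78). Sp140 encodes a chromatin reader of immune cells. It had 22.2 and 24.7 CPM in Pd1cKO-Cx3-labelled libraries, against 15.8 and 13.1 CPM in Pd1fl/fl. These groups did not overlap either, with a log2 fold change of 0.69 ± 0.27 (SE, adjusted p = 0.611 by edgeR, 95% interval 0.01 to 1.37). The upper ends of these 2 intervals lie below the lower end of the interval of Sp100, although the difference between genes was not tested.

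How far each count can be assigned to 1 gene differs within the cluster. Of the distinct 50-base words in GENCODE transcripts of Sp100, 5.92% also occur, on either strand, in transcripts of another gene. The share was 42.3% for Sp110 and 57.3% for Sp140, so reads of these 2 genes are more open to being shared or discarded. The read length and the counter's treatment of shared reads are not given in the sources used here. Gm10552, a gene on the opposite strand within Sp140, had 21 and 24 counts in Pd1cKO-Cx3-labelled libraries and 14 and 8 in Pd1fl/fl, few beside the 195 to 383 counts of Sp140. Gm17017, which overlaps both Sp140 and Sp100 on the opposite strand, had 1 to 21 counts. It holds 20.6% of the 50-base words of Sp140. Whether counting used strand is not stated.

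Start regions of the cluster were read from RefSeq windows on GRCm38, which run from 250 bases before to 50 bases after an annotated start. Windows were found for 7 of the 8 members, all but Ifi204. The interferon-stimulated response element core GAAA, any 2 bases, GAAA and the gamma-activated site core TTC, any 3 bases, GAA, searched on both strands, had no match in any window of Sp100, Sp110, Sp140, Pml or Daxx. A variant with a longer spacer, GAAAAA, any 1 base, GAAA, was searched on both strands after these sequences had been read. It matched Sp100 and Sp110, and 101 of the 27025 genes with a window (0.374%). Because the pattern was set after reading them, the matches in Sp100 and Sp110 were fixed in advance. The share over all genes is thus no measure of how rare such a match is. The 100 bases before the Sp100 start (chr1:85649888-85649987, plus strand) are shown because Sp100 is the member that passed the test, and the stretches around both matches are set below each other. Capitals mark the match.
Sp100 upstream: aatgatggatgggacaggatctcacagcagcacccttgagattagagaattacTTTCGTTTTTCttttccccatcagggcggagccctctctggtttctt
Sp100 match: tacTTTCGTTTTTCttttcccc
Sp110 match: cacTTTCATTTTTCttttcttg
The stretches (chr1:85649938-85649959, plus strand, and chr1:85598783-85598804, minus strand) share 17 of 22 bases. The match begins 47 bases before the Sp100 start used here and 10 bases into the transcript from the Sp110 start used here. From a further annotated start of Sp100 the same match begins 73 bases before. A further window of Sp110 (chr1:85603842-85604141) had no match. A match of letters describes the window and shows no binding, and its part in the levels of Sp100 and Sp110 was not tested.

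Pml, on chromosome 9 (58218076 to 58249786), encodes the protein that scaffolds the bodies. It had 99.2 and 125 CPM in Pd1cKO-Cx3-labelled libraries against 71.9 and 75.4 CPM in Pd1fl/fl, with no overlap. Its log2 fold change was 0.60 ± 0.17 (SE, adjusted p = 0.535 by edgeR, 95% interval 0.17 to 1.03). Without Pd1cKO-Cx3-labelled replicate 3, the higher of the pair, it was 0.43. Daxx, on chromosome 17 (33909414 to 33915589), encodes a chaperone of histone H3.3 that PML bodies hold. It had 82.3 and 95 CPM in Pd1cKO-Cx3-labelled libraries, against 49.8 and 72.4 CPM in Pd1fl/fl, so the groups were separate but the controls spread 1.46-fold. The log2 fold change was 0.53 ± 0.23 (SE, adjusted p = 0.649 by edgeR, 95% interval -0.04 to 1.10). It was 0.28 without Pd1fl/fl replicate 1 and 0.83 without Pd1fl/fl replicate 2.

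**Figure D2:**
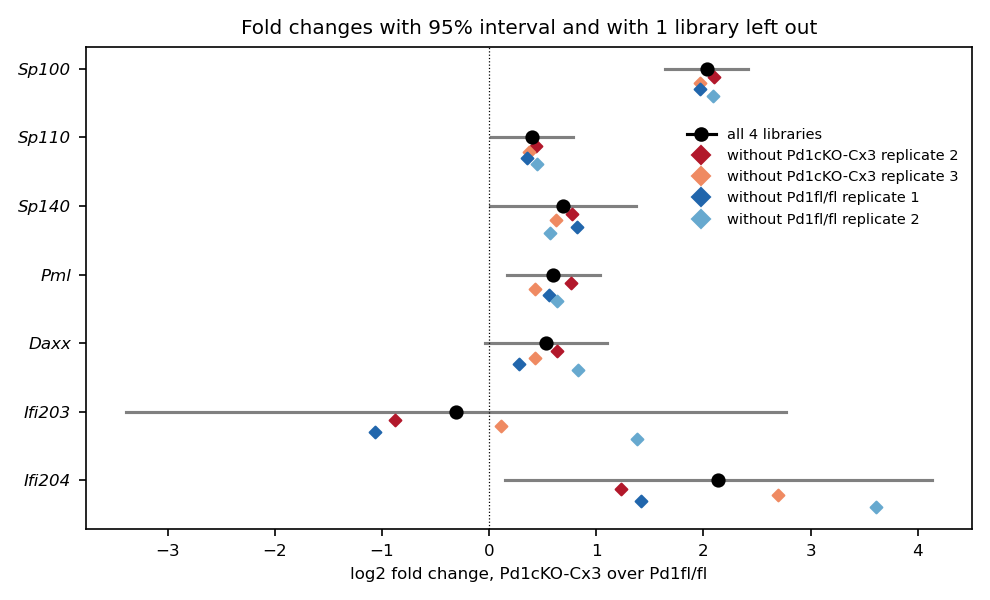
Log2 fold change (Pd1cKO-Cx3-labelled libraries over Pd1fl/fl) of the 7 members tested, with black points and 95% interval lines from edgeR on all 4 libraries and coloured diamonds for fits with 1 library left out. The Sp100 diamonds lie between 1.97 and 2.10, those of Ifi204 between 1.23 and 3.61, and those of Ifi203 on both sides of 0.

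Levels of different genes were compared per kilobase of annotated exon (union of GENCODE exons, which can exceed the transcript in use). In Pd1cKO-Cx3-labelled libraries, Daxx had the highest mean level per kilobase with 28.1 CPM per kb, followed by Sp100 with 20.6 and Pml with 20.1. Sp110 had 13.4, Ifi204 had 12.3 and Sp140 had 7.05 CPM per kb. In Pd1fl/fl the order was Daxx with 19.4, Pml with 13.2, Sp110 with 10.1, Sp100 with 5.01, Sp140 with 4.34 and Ifi204 with 2.78 CPM per kb. Sp100 thus stood second in Pd1cKO-Cx3-labelled libraries and behind Daxx, Pml and Sp110 in Pd1fl/fl. Neighbours in these orders often did not differ beyond the libraries' spread. In Pd1cKO-Cx3-labelled libraries Sp100 had 19.6 and 21.6 CPM per kb where Pml had 17.8 and 22.5. The places of Sp110 and Sp140 are less certain, since 42.3% and 57.3% of their 50-base words also occur in another gene. Ifi203 and Mndal were last in both groups, at 0.173 and 0.657 CPM per kb in Pd1cKO-Cx3-labelled libraries and 0.214 and 0.0186 in Pd1fl/fl.

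Ifi204 (chromosome 1, 173747293 to 173766943) encodes a DNA-binding HIN-200 protein that takes part in sensing of foreign DNA in mouse macrophages. It had 64.5 and 23.3 CPM in Pd1cKO-Cx3-labelled replicates 2 and 3, against 3.58 and 16.2 CPM in Pd1fl/fl replicates 1 and 2. The groups did not overlap, yet the spread within them was wide, 2.77-fold in Pd1cKO-Cx3-labelled libraries and 4.53-fold in Pd1fl/fl. The log2 fold change of 2.14 ± 0.80 (SE), as large as that of Sp100, missed the threshold (adjusted p = 0.589 by edgeR, 95% interval 0.15 to 4.13). It was 1.23 without Pd1cKO-Cx3-labelled replicate 2, 1.42 without Pd1fl/fl replicate 1 and 3.61 without Pd1fl/fl replicate 2.

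Ifi203 (173920407 to 173942672), which encodes another nuclear HIN-200 protein, was near the lower limit of counting. It had 22 and 12 counts (1.54 and 0.775 CPM) in Pd1cKO-Cx3-labelled libraries against 7 and 36 counts (0.440 and 2.42 CPM) in Pd1fl/fl. The highest and the lowest library were both controls. The log2 fold change was -0.31 ± 1.24 (SE, adjusted p = 0.985 by edgeR, 95% interval -3.39 to 2.77), and it was positive without Pd1fl/fl replicate 2 (1.38) and without Pd1cKO-Cx3-labelled replicate 3 (0.11).

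Mndal (173849126 to 173942491) encodes a HIN-200 protein related to the human myeloid nuclear differentiation antigen. It had 68 and 0 counts in Pd1cKO-Cx3-labelled replicates 2 and 3 against 0 and 2 counts in Pd1fl/fl. It failed the filter on low counts, so it has no adjusted p. The ratio of summed counts, 68 against 2, was 35.2 (exact 95% binomial interval 9.37 to 296), but the interval covers counting error only and every count of the first sum came from 1 library. A count of 0 in Pd1cKO-Cx3-labelled replicate 3 allows a level of up to 0.194 CPM.

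Mndal and Ifi203 overlap over 22085 bases on the same strand, and Ifi211 lies inside Mndal, so reads there can be ambiguous between genes and the values of all 3 are uncertain. Of the 50-base transcript words, 19.6% (Mndal), 12.4% (Ifi203) and 72.8% (Ifi211) also occur in another gene, and 20.0% of those of Ifi204. The start regions of Ifi203 and Mndal are near copies. The 100 bases before the RefSeq start of Ifi203 (chr1:173942493-173942592, minus strand) and the corresponding stretch of Mndal (chr1:173880189-173880288, minus strand) share 99 of 100 bases. They are shown because they carry the response element core, here in capitals, which had no match in the windows of the speckled protein genes.
Ifi203 upstream: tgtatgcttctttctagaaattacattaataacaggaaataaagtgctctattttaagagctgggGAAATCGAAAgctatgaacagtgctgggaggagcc
Mndal upstream: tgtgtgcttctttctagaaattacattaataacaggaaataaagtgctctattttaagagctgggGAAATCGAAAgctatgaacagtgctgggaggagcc
The core (GAAA, any 2 bases, GAAA) was found in these 2 members of the 7 with a window, and in 3.99% of the 27025 genes with one. A further window of Ifi203 had no core. A further window of Mndal had a different match on the other strand (TTTCTCTTTC), 54 bases before its start. The part of the core in the levels of Ifi203 and Mndal was not tested.

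The remaining HIN-200 genes were read from a list of family symbols, of which 11 were in the tables and 9 were tested. None passed (edgeR, 3 with an unadjusted p under 0.05, beside 8.09% of all genes tested). DESeq2 called Ifi209 higher, beside 1.18% of all genes tested. The fold changes of 8 were positive and that of Aim2 was negative, with a median log2 fold change of 2.16 beside 0.01 over all genes. Both Pd1cKO-Cx3-labelled libraries lay above both controls in 5 of the 9, beside 21.3% of all genes tested. Ifi209 had 36.8 and 17.6 CPM in Pd1cKO-Cx3-labelled libraries against 7.04 and 5.05 CPM in Pd1fl/fl, a log2 fold change of 2.16 ± 0.46 (SE, adjusted p = 0.438 by edgeR and DESeq2 adjusted p = 0.00573). Ifi207, which had the pattern most like Ifi204, had 19.1 and 8.78 CPM in Pd1cKO-Cx3-labelled libraries against 1.19 and 5.45 CPM in Pd1fl/fl. Ifi214 had 27 and 47 counts in Pd1cKO-Cx3-labelled libraries against 2 and 0 in Pd1fl/fl. The ratio of summed counts was 38.3 (exact 95% binomial interval 10.2 to 322), but that interval covers counting error only. It leaves out the spread between libraries. By edgeR the log2 fold change of Ifi214 was 5.09 (95% interval 1.13 to 9.05), which missed the threshold (adjusted p = 0.542).

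Some HIN-200 genes differed more between the 2 libraries of a genotype than between the genotypes. Those named here were picked after their values were seen. Ifi202b, whose expression is known to differ between inbred mouse strains, had 1 and 1962 counts in Pd1cKO-Cx3-labelled replicates 2 and 3, against 227 and 0 counts in Pd1fl/fl replicates 1 and 2. Counts were high in 1 library of each genotype and at or next to 0 in the other library, and none of its 50-base transcript words occurs in another gene. Ifi213 had 642 and 30 counts in Pd1cKO-Cx3-labelled libraries and 1 and 203 in Pd1fl/fl. It was thus high in the 2 libraries where Ifi202b was at or near 0. Mndal was counted in these same 2 libraries, and Ifi203 was higher in each of them than in the other library of its genotype. Aim2, the family's inflammasome sensor, had 77.4 and 41.8 CPM in Pd1cKO-Cx3-labelled libraries and 55.8 and 89.9 CPM in Pd1fl/fl, with a log2 fold change of -0.30 ± 0.37 (SE, adjusted p = 0.920 by edgeR).

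Of the 14 HIN-200 genes in the tables, 8 had Pd1cKO-Cx3-labelled replicate 2 above replicate 3 and Pd1fl/fl replicate 2 above replicate 1. These were Aim2, Ifi203, Ifi204, Ifi207, Ifi208, Ifi211, Ifi213 and Mndal, and 3 had the opposite order in both genotypes (Ifi202b, Ifi203-ps and Ifi214). The first order was seen in 25.6% of all genes tested. That share leaves out genes with too few counts to be tested, while the 14 include some, such as Mndal. No share over all genes was taken for the opposite order. The genes are neighbours that can share reads and alleles, so they are not independent of each other. The strain and genotype of this region in each library were not tested.

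**Figure D3:**
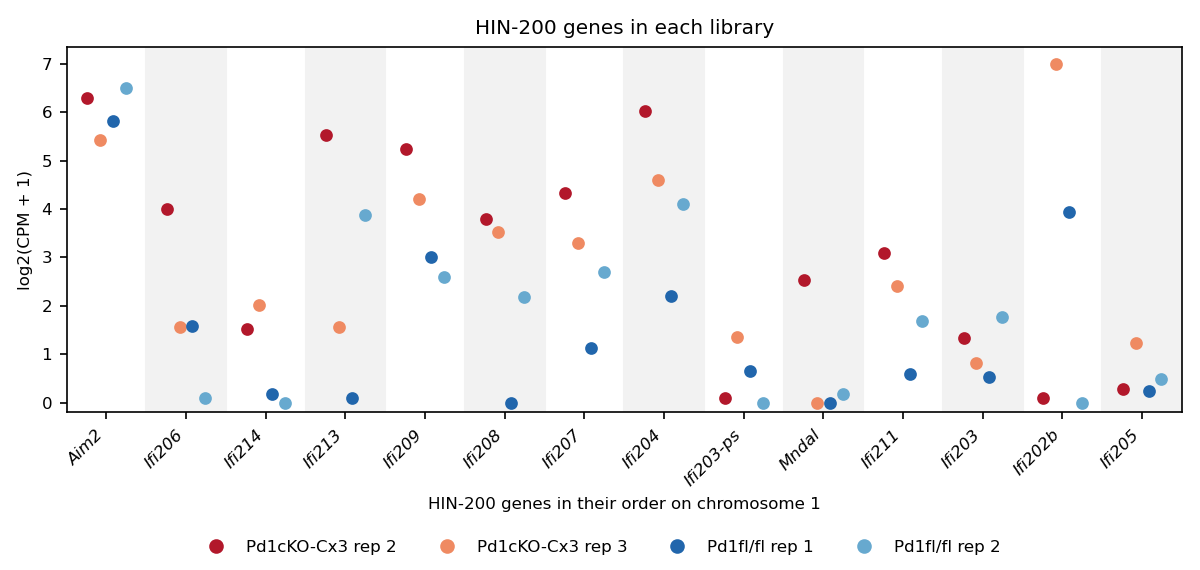
Level of the 14 HIN-200 genes, as log2(CPM + 1), in their order along chromosome 1, with 1 coloured point per library and those labelled Pd1cKO-Cx3 to the left within each gene. Ifi202b stands high in Pd1cKO-Cx3-labelled replicate 3 and in Pd1fl/fl replicate 1, while Ifi213 and Mndal stand highest in Pd1cKO-Cx3-labelled replicate 2.

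Partners of PML bodies were taken from a list of 42 genes of SUMO conjugation, histone deposition, DNA repair and body assembly. All 42 were tested, and none passed (edgeR, 2 with an unadjusted p under 0.05, beside 8.09% of all genes tested). DESeq2 called none. The median log2 fold change was 0.08, beside 0.01 over all genes and 0.60 over the 7 members tested. Both Pd1cKO-Cx3-labelled libraries lay above both controls in 14 of 42 genes (21.3% of all genes tested) and below both in 6 (18.8% of all genes tested). Uba2, a subunit of the SUMO-activating enzyme, had 156 and 200 CPM in Pd1cKO-Cx3-labelled libraries against 115 and 123 CPM in Pd1fl/fl, a log2 fold change of 0.57 ± 0.17 (SE, adjusted p = 0.535 by edgeR). Cbx5, which encodes heterochromatin protein HP1 alpha, had 90.2 and 90.7 CPM in Pd1cKO-Cx3-labelled libraries against 47.6 and 64.4 CPM in Pd1fl/fl (log2 fold change 0.68 ± 0.20, SE, edgeR adjusted p = 0.535). Senp3, a SUMO protease, had 23.4 and 16.5 CPM in Pd1cKO-Cx3-labelled libraries against 34.3 and 29.0 CPM in Pd1fl/fl, with a log2 fold change of -0.67 ± 0.29 (SE, adjusted p = 0.643 by edgeR). Atrx, the partner of DAXX in H3.3 deposition, had 222 and 223 CPM in Pd1cKO-Cx3-labelled libraries against 227 and 242 CPM in Pd1fl/fl, a log2 fold change of -0.08 ± 0.11 (SE).

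Of the other genes of the speckled protein cluster, 4 were in the tables on chromosome 1 and 3 were tested, with none called (edgeR, 0 with an unadjusted p under 0.05, and DESeq2 called none). All were weakly counted. A530040E14Rik had 17 and 18 counts in Pd1cKO-Cx3-labelled libraries against 33 and 23 in Pd1fl/fl, and Gm16026 had 8 and 7 against 13 and 10. Both fold changes were negative and that of Gm10552 was positive.

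Interferon signals through JAK kinases to transcription factors such as STAT2 and IRF9, which switch on genes such as Sp100 and Pml. A list of receptors, kinases, factors and DNA sensors of this pathway held 17 genes, and 17 were tested. None passed in edgeR, with 4 at an unadjusted p under 0.05, beside 8.09% of all genes tested. Both Pd1cKO-Cx3-labelled libraries lay above both controls in 8 of the 17 (21.3% of all genes tested). They lay below both in 4 (18.8% of all genes tested). DESeq2 called 4 higher (1.18% of all genes tested), Irf7, Irf9 and Stat2 among them. Irf7 had 39.8 and 57.3 CPM in Pd1cKO-Cx3-labelled libraries against 6.41 and 10.9 CPM in Pd1fl/fl (log2 fold change 2.48 ± 0.37, SE, edgeR adjusted p = 0.225). Irf9 had 241 and 251 CPM in Pd1cKO-Cx3-labelled libraries, against 125 and 156 CPM in Pd1fl/fl, with a log2 fold change of 0.80 ± 0.15 (SE, adjusted p = 0.361 by edgeR). Stat2 had 111 and 99 CPM in Pd1cKO-Cx3-labelled libraries, against 39.7 and 61.5 CPM in Pd1fl/fl, and its log2 fold change was 1.04 ± 0.25 (SE, adjusted p = 0.464 by edgeR).

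Ifnar1, a receptor subunit gene picked after its values were seen, had 133 and 134 CPM in Pd1cKO-Cx3-labelled libraries against 136 and 127 CPM in Pd1fl/fl, with a log2 fold change of 0.01 ± 0.13 (SE). Tmem173, picked likewise, encodes the DNA-sensing adaptor STING. It had 104 and 122 CPM in Pd1cKO-Cx3-labelled libraries against 96.1 and 111 CPM in Pd1fl/fl, and its groups overlapped. Over the list the median log2 fold change was 0.17, beside 0.01 over all genes.

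**Figure D4:**
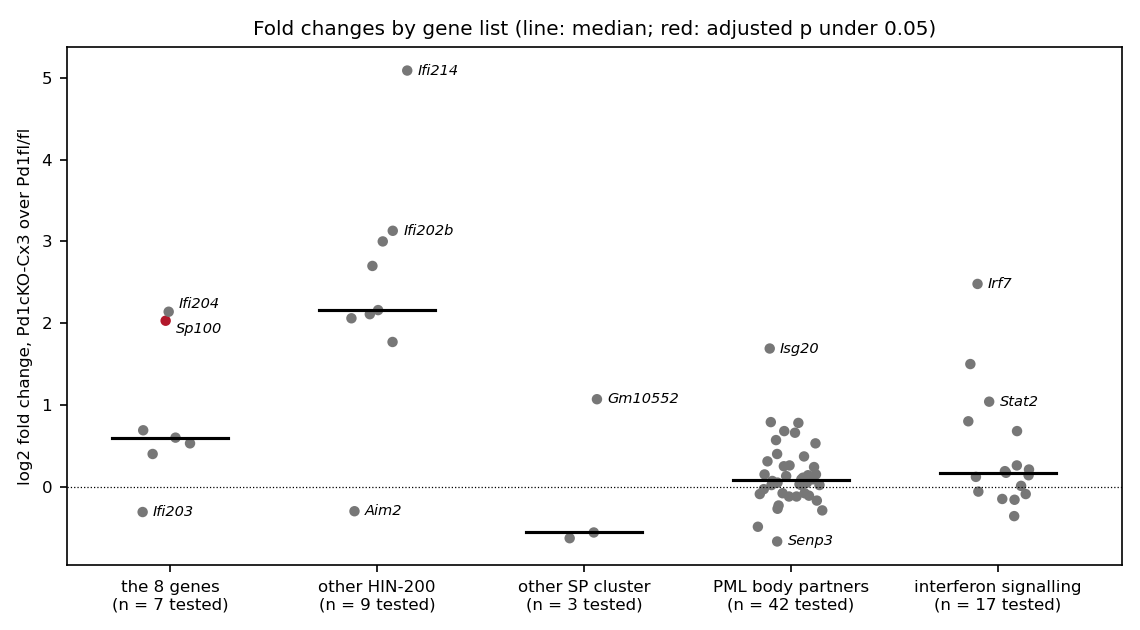
Log2 fold change (Pd1cKO-Cx3-labelled libraries over Pd1fl/fl) of each tested gene in the 8-gene set and the 4 lists, with 1 point per gene and a line at each median. Sp100 is the only point that passed edgeR's adjusted p of 0.05 (red), and the 42 partners of PML bodies centre on 0.08.

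The genes whose pattern over the 4 libraries was most like that of Sp100 were sought among 9486 other tested genes with a mean of at least 5 CPM. The measure was the root mean square difference of log2(CPM + 1) after each gene's mean was removed. Usp31, which encodes a deubiquitinase, came closest (0.067), followed by Plac8 (0.086) and Oas1a (0.141), an antiviral synthetase. Plac8 had 71.1 and 67.3 CPM in Pd1cKO-Cx3-labelled libraries against 16.8 and 17.3 CPM in Pd1fl/fl. None of the 3 passed the edgeR test (adjusted p = 0.358, 0.0958 and 0.308). Plac8 also stands on the monocyte and neutrophil marker list and made up most of its sum in Pd1cKO-Cx3-labelled libraries. That sum was 89.4 and 79 CPM in Pd1cKO-Cx3-labelled libraries against 46.9 and 28 CPM in Pd1fl/fl. Without Plac8 it was 18.3 and 11.7 CPM in Pd1cKO-Cx3-labelled libraries against 30 and 10.7 CPM in Pd1fl/fl, and of these 5 other markers 0 were higher in both Pd1cKO-Cx3-labelled libraries than in both controls and 1 was lower. For Pml the closest were Uba2 (0.019), Nfkbib (0.0223) and Rnf145 (0.0225), and 108 genes lay within 0.1, so its pattern was common. For Ifi204 the closest were Ifi207 (0.228), Cd72 (0.277) and Fam198b (0.28), and no gene lay within 0.1.

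The authors' deposited tables compare 1 library labelled Pd1cKO-Cx3 with 1 control at a time, and the 4 comparisons share libraries. In the authors' deposited tables a gene was marked where p was under 0.05 and the log2 fold change was over 1 in either direction. In the authors' deposited tables, 29.6% and 27.6% of the genes were marked for replicate 2 labelled Pd1cKO-Cx3 over Pd1fl/fl replicates 1 and 2, and 33.2% and 31.6% for replicate 3. Sp100 was marked as higher in 4 of 4 of the authors' deposited tables, with log2 fold changes from 1.91 to 2.17. Ifi204 was marked as higher in 3 of 4, and its log2 fold change in the authors' deposited tables ran from 0.52 to 4.17. Ifi203 was marked as higher in 1 of the authors' deposited tables (1.81) and as lower in another (-1.65). Mndal was listed in 2 of the authors' deposited tables, those of Pd1cKO-Cx3-labelled replicate 2, and marked as higher in both. Sp110, Sp140, Pml and Daxx were marked in 0 of the 4 authors' deposited tables, with positive log2 fold changes in each.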

How the data were processed

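The authors deposited 4 tables, each pairing 1 library labelled Pd1cKO-Cx3 with 1 Pd1fl/fl library, so each of the 4 libraries stood in 2 tables. The deposited counts are unscaled reads for each Ensembl gene, going by the file headers and whole values. Per the submitters' processing notes, HTSeq 0.6.0, TopHat2 2.0.12 and Bowtie2 2.2.3 were used, with the build mm9. Positions are those of the deposited tables, read as GRCm38 because 92.1% of 20276 identifiers stand exactly where GENCODE M21 puts them. CPM, as deposited, is the count scaled to a total of 1000000, with 0 shown as 0.5 reads, and was not used. The deposited p-values, log2 fold changes and ratio columns come from 2 libraries each, and the sources used here do not name their test.

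A library's counts were the same in both of its tables (0 differences). Tables listed a gene if each library had 1 count or more, or if one had 5 or more (0 exceptions in 74515 pairs), and an unlisted count, at most 4, was set to 0. For Mndal in Pd1cKO-Cx3-labelled replicate 3 it must be 0, since its partner had 2 counts and the pair is not listed.

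The comparison of genotypes used edgeR 4.0.16 under R 4.3.3 (TMM factors, filterByExpr, quasi-likelihood test, Benjamini-Hochberg), which was tested on simulated data. The SE is the fold change divided by the root of F. Other normalizations and filters, DESeq2 1.42.0 and fits without 1 library were alternatives. Floors are 3 counts per library, and floors and binomial intervals cover counting error only. Named genes are the 8 members, called members or the 3 with the smallest p of each list, Pdcd1, Cx3cr1 and the 3 genes most like Sp100, Pml and Ifi204. A gene that this rule names is not reported here. Other genes named were picked after their values were seen. The members and lists were chosen with earlier results of these data known. Of the symbols listed for the speckled protein cluster, 1 proved to lie outside chromosome 1 and was left out.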

Additional observations from a re-analysis of the deposited data

How the results depend on the processing

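No paired analysis was possible because the groups compared share only replicate number 2. Over all genes edgeR called 3 higher and 3 lower. It called 22 higher and 10 lower without a filter on low counts, and 22 and 10 with at least 5 CPM in 2 libraries, while DESeq2 called 178 and 55. Without 1 library the counts ranged from 1 to 16 higher and from 2 to 5 lower, with 16 and 5 without Pd1fl/fl replicate 2. Of the members, 1 was called, and 0 with upper-quartile factors (Sp100 at 2.01, adjusted p = 0.0583, within the range of 8.07e-22 to 0.268 over its alternatives). Without 1 library it was 0 to 1. The call of Sp100 was lost without Pd1cKO-Cx3-labelled replicate 2 (2.10) or 3 (1.97) and without Pd1fl/fl replicate 1 (1.97, adjusted p = 0.0934). Each such fit leaves 1 library in a group, which is assumed to vary like the 2 of the other group. Ifi203 reversed in 2 fits, to 0.11 without Pd1cKO-Cx3-labelled replicate 3 and to 1.38 without Pd1fl/fl replicate 2 (range without 1 library -1.07 to 1.38), and the other tested members kept a positive sign in each alternative. DESeq2 called 1 of the remaining HIN-200 genes and 4 interferon signalling genes, and edgeR called 1 interferon signalling gene without a filter and 1 with at least 5 CPM in 2 libraries. The speckled protein list had no gene left at 5 CPM, so that setting gives it no median. The 95% intervals of Pml (0.17 to 1.03) and Daxx (-0.04 to 1.10) show how loosely 2 libraries a group fix a fold change, and Ifi203 and Mndal are limited by counts of 0 to 68.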

Other observations

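Of the genes next to Sp100, Pml and Daxx that are named here, none passed the edgeR test. On the far side of Sp100, Cab39 had 69.3 and 76.0 CPM in Pd1cKO-Cx3-labelled libraries against 55.4 and 49.1 CPM in Pd1fl/fl, while A630001G21Rik, which lies between them, had 79.1 and 101 CPM against 123 and 112 CPM. Their log2 fold changes were 0.47 ± 0.18 and -0.40 ± 0.18 (SE), and neither passed (edgeR adjusted p = 0.592 and 0.656). Beside Daxx, Tapbp, which encodes the peptide-loading factor tapasin, had 709 and 695 CPM in Pd1cKO-Cx3-labelled libraries against 643 and 709 CPM in Pd1fl/fl. Kifc1, a mitotic motor gene on the other side of Daxx, had 15.4 and 32.1 CPM in Pd1cKO-Cx3-labelled libraries against 12.9 and 14.6 CPM in Pd1fl/fl. Beside Pml, Stoml1 had 84.9 and 71.7 CPM in Pd1cKO-Cx3-labelled libraries against 116 and 95.1 CPM in Pd1fl/fl. Its log2 fold change was -0.44 ± 0.18 (SE, adjusted p = 0.626 by edgeR). Cd276, on the same side, had 107 and 55.8 CPM against 76.2 and 80.2 CPM, so its groups overlapped. On the other side, Islr and Islr2 had 0 counts in Pd1cKO-Cx3-labelled replicate 3 and Pd1fl/fl replicate 1. Near Daxx, Zbtb22 and BC051226 also overlapped between groups (log2 fold changes 0.00 ± 0.48 and -0.18 ± 1.55, SE).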
